A study of Mus musculus with 28 samples.

Results

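The long form of the leptin receptor, LepRb, is a cytokine receptor through which leptin, the hormone of adipose tissue, acts on hypothalamic neurons. It signals through the kinase JAK2 and the transcription factor STAT3, and its cells include the AgRP and POMC neurons of the arcuate nucleus and neurons of the dorsomedial, ventromedial, lateral and premammillary hypothalamus. Leptin falls during fasting, and AgRP neurons, which promote feeding, are known to be active in that state, while peptides of POMC neurons restrain feeding.

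The RNA described here was pulled down with the tagged ribosomes of LepRb cells at baseline, in mice without food given vehicle 3 h before analysis. Its members, chosen by label, are the wild-type libraries with the 3 h vehicle label, 8 of the 28 libraries of the series: 4 bead libraries and the 4 depleted libraries of the same 4 lysates (m1, m3, f1 and f3, by the stem of their titles). All mice were LepRb-eGFP-L10a mice, wild type at the leptin gene, in which a green fluorescent protein fused to the ribosomal protein L10a tags ribosomes of LepRb cells. They were 10 to 13 weeks old, of both sexes, lost their food at lights-on and were given vehicle at once, which the protocol calls saline and the treatment label PBS. Bead RNA was pulled down from dissected hypothalami with antibodies against the tag, and depleted RNA is what the supernatant still held. The 6 vehicle libraries set against them further down come from 3 lysates of LepRb-eGFP-L10a mice at 10 h: 1 lysate of wild-type mice and 2 lysates of ob/ob mice, whose mutated leptin gene gives no working hormone. The sources used here do not say whether a lysate held 1 mouse or several, nor what drives the tagged protein. No leptin-treated library entered any comparison.

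Bead libraries held 28879062 to 35487170 counts and depleted libraries 23728531 to 38760273. The 10 largest genes took 2.65% to 3.77% of a library. Log levels correlated at r = 0.9761 to 0.9898 between bead libraries and at 0.991 to 0.9928 between depleted libraries. Pituitary hormone mRNAs set lysate m3 apart: growth hormone, Gh, had 57 CPM (reads per 1e+06 counted, scaled by TMM) in the m3 bead library and at most 0.608 CPM in the other bead libraries, and 238 CPM in the m3 depleted library and at most 1.41 CPM in the other depleted libraries. Values without m3 are given beside the results it moves. Per-library values below are CPM in the order m1, m3, f1 and f3, and fold changes, standard errors (SE) and adjusted p-values for bead over depleted RNA come from edgeR's quasi-likelihood test over the 4 lysates with Benjamini-Hochberg adjustment. Log2 ratios of single lysates have 0.1 CPM added to both levels.

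Of 18449 genes tested, 4649 were higher in beads (25.2%) and 4795 were lower (26%) at an adjusted p under 0.05. Of these, 536 were at least 2-fold higher (2.91%) and 1787 at least 2-fold lower (9.69%). In 3521 of the 4649 higher genes the lowest bead library exceeded the highest depleted one. In 3748 of the 4795 lower genes the highest bead library stayed below the lowest depleted one. Such separation, given for named genes below, was thus usual among called genes. The median log2 fold change of all genes tested was -0.017. Counts of list members below are to be read beside the 25.2% and 26% of all genes. The lists and their members were chosen with earlier results of these data known. Their counts are therefore descriptions, not tests against those shares. Protein-coding genes were also split into 5 bins of exon length. The median log2 fold change fell from 0.24 in the shortest bin (243 to 2462 bases) to -0.18 in the longest (7561 bases or more). The part of length in the lists below was not tested. A bead library differs from its depleted partner both in the cells it comes from and in being bound to ribosomes, and these cannot be told apart here. Nor can more cells of a type and more RNA per cell. Scaled by library totals, 3224 genes were higher and 5996 lower, with the fold changes shifted by -0.12 on the log2 scale. Without lysate f3 the counts were 3024 higher and 3470 lower, and without m1 3036 higher and 3178 lower.

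**Figure D1:**
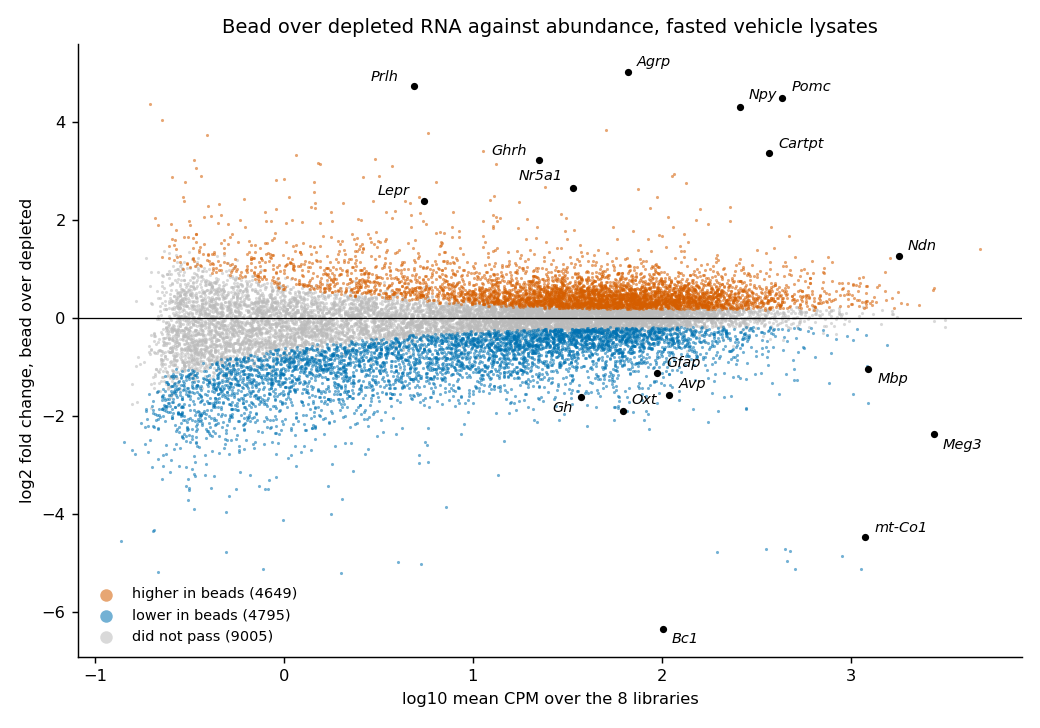
Log2 fold change of bead over depleted RNA (vertical axis) against log10 mean CPM over the 8 libraries (horizontal axis), 1 point per gene tested; orange, 4649 genes higher in beads; blue, 4795 genes lower; grey, genes that did not pass. Named genes are black points: Agrp stands highest at 5.03 and Bc1 lowest at -6.34.

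Lepr, the receptor gene (ENSMUSG00000057722; GRCm38 chromosome 4, 101717404 to 101815352), checks the pull-down. It had 7.84, 10.9, 8.31 and 10.3 CPM in beads, against 1.93, 2.02, 1.47 and 1.57 CPM in depleted RNA. The lowest bead library stood well above the highest depleted one. The bead level was 5.27 times the depleted level (log2 fold change 2.40, SE 0.152, adjusted p = 1.04e-05). The counts were made per gene, so LepRb and the short receptor isoforms are read together.

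The AgRP neuron genes were higher in beads throughout, 5 of 5 tested. Agrp codes for agouti-related peptide, which blocks melanocortin receptors and promotes feeding (ENSMUSG00000005705; GRCm38 chromosome 8, 105566698 to 105637393). It had 75, 289, 62.4 and 89.1 CPM in beads, against 2.87, 5.02, 2.83 and 2.94 CPM in depleted RNA, a 32.7-fold difference (log2 fold change 5.03, SE 0.225, adjusted p = 7.03e-06). The m3 bead library held more than the other 3 bead libraries, and no bead library came near the depleted range. Npy, the feeding peptide made by the same neurons, had 389, 977, 267 and 347 CPM in beads, against 19.2, 22.7, 22.5 and 22.3 CPM in depleted RNA (log2 fold change 4.32, SE 0.293, adjusted p = 4.44e-05). Again m3 was the highest bead library, whereas the depleted libraries lay within 19.2 to 22.7 CPM. Without m3 the log2 fold changes were 4.69 for Agrp and 3.95 for Npy. The other members were Corin, a serine protease, with a log2 fold change of 1.95, the homeobox gene Otp with 1.87, and the ghrelin receptor Ghsr with 1.55. Gene models on both strands overlap Agrp (Gm5914 and Ctcf), and the library kit does not mark strand.

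POMC neuron genes were likewise higher, 5 of 5 tested. Pomc, the precursor of alpha-melanocyte-stimulating hormone (ENSMUSG00000020660; GRCm38 chromosome 12, 3954951 to 3960642), had 1051, 711, 819 and 739 CPM in beads, against 27.1, 76.8, 36.2 and 23.5 CPM in depleted RNA (22.5-fold; log2 fold change 4.49, SE 0.337, adjusted p = 6.54e-05). The beads lay far above the depleted libraries, of which m3 was the highest. Pomc is a major pituitary gene too, and the other pituitary mRNAs also stood high in m3. The Pomc log2 ratio was 3.21 in m3 and 4.50 to 5.27 in the other lysates, and the log2 fold change without m3 was 4.91. The part of pituitary RNA in the m3 value was not tested. Cartpt, which codes for the CART peptide, had 708, 785, 714 and 482 CPM in beads, against 56, 55.2, 102 and 53.8 CPM in depleted RNA (log2 fold change 3.37, SE 0.169, adjusted p = 8.83e-06). The transcription factors Tbx3, Prdm12 and Isl1 had log2 fold changes of 2.68, 1.86 and 1.28, and in each the lowest bead library exceeded the highest depleted one.

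**Figure D2:**
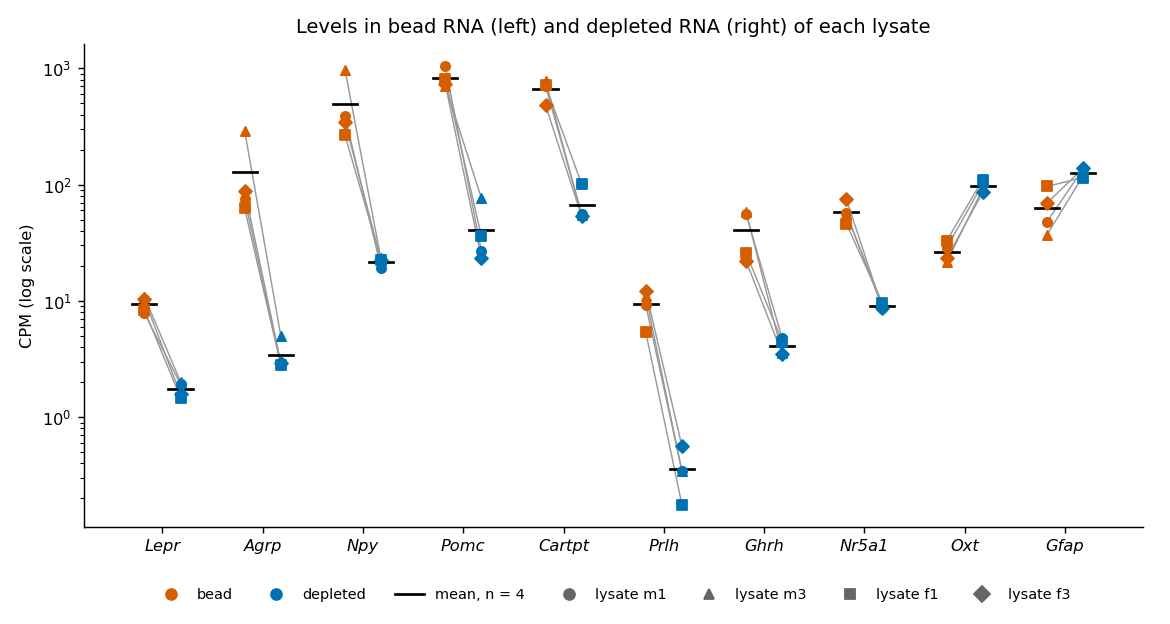
CPM on a log axis of 10 genes in bead RNA (orange, left) and depleted RNA (blue, right); symbols mark the 4 lysates, grey lines join the libraries of a lysate and black bars are means of 4. From Lepr to Nr5a1 every bead point lies above every depleted point, with Agrp at 62.4 to 289 CPM in beads against 2.83 to 5.02 CPM in depleted RNA, whereas Oxt and Gfap lie lower in beads.

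The promoters of 4 of these peptide genes are shown for reference, since the genes were higher in beads together. Each line gives the 100 bases before a start site listed by RefSeq on GRCm38.p6, read 5′ to 3′ on the gene's strand; capitals mark TATAAA, the core of the TATA box that positions RNA polymerase at many strongly regulated genes.
Pomc, chr12:3954845-3954944, + strand: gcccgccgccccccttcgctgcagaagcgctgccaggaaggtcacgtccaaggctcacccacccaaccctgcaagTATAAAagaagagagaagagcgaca
Ghrh, chr2:157337427-157337526, - strand: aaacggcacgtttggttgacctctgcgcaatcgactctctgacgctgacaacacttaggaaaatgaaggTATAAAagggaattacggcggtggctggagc
Npy, chr6:49822610-49822709, + strand: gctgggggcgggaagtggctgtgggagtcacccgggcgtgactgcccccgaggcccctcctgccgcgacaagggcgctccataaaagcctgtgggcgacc
Cartpt, chr13:99900684-99900783, - strand: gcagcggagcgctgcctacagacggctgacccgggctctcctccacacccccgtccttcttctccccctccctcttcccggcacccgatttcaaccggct
TATAAA begins 25 bases before the listed start of Pomc and 31 bases before 1 of the 2 listed starts of Ghrh. These letters are not in the windows shown for Npy and Cartpt. Searched on both strands over the full 300 bases of each RefSeq promoter (250 before and 50 after the start), TATAAA was in 8 of the 34 promoters of the 31 matched neuropeptide genes (23.5%), in 6 of 68 promoters of ribosomal protein genes (8.82%) and in 4473 of 32851 promoters overall (13.6%). A match is a run of letters, not a shown binding site.

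GHRH neuron genes rose in all 3 cases. Gsx1, a homeobox gene of this arcuate lineage, had 19, 29.1, 14.9 and 20.3 CPM in beads, against 1.63, 1.91, 2.21 and 1.9 CPM in depleted RNA (log2 fold change 3.42, SE 0.179, adjusted p = 3.91e-06). Ghrh, the releasing hormone for growth hormone, had 56, 57.9, 25.8 and 22.1 CPM in beads, against 4.77, 3.53, 4.48 and 3.51 CPM in depleted RNA (log2 fold change 3.22, SE 0.25, adjusted p = 7.5e-05). Its m libraries lay above its f libraries in beads, and the depleted libraries did not separate that way. Gal, the galanin precursor, had 99.7, 94.6, 71.7 and 79.9 CPM in beads, against 25.3, 24, 23 and 22.8 CPM in depleted RNA (log2 fold change 1.85, SE 0.0853, adjusted p = 2.23e-06).

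KNDy neurons, arcuate cells that make kisspeptin, neurokinin B and dynorphin and drive GnRH release, gave a different picture: 2 of 6 genes tested were higher and none passed in the other direction, with a list median of 0.37. Pdyn, the dynorphin precursor, had 121, 93.4, 109 and 111 CPM in beads, against 29.6, 29.7, 33.2 and 34.4 CPM in depleted RNA (log2 fold change 1.77, SE 0.0865, adjusted p = 2.87e-06); many other hypothalamic neurons make it as well. Tac2, which codes for neurokinin B, had 36.1, 25.8, 84.3 and 54.2 CPM in beads, against 32.4, 28.5, 31.8 and 29.1 CPM in depleted RNA (log2 fold change 0.58, SE 0.235, adjusted p = 0.0701). Its f beads lay above the depleted range while its m beads fell on either side of the depleted values. Kiss1 was listed at 0 in all 8 libraries; its gene model overlaps others on the same strand. Esr1, the estrogen receptor, rose (log2 fold change 0.58), while Pgr, Tacr3 and Prlr did not pass.

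Among dorsomedial genes, 4 of 4 were higher. Prlh, which codes for prolactin-releasing peptide, had 9.18, 11, 5.36 and 12.2 CPM in beads, against 0.346, 0.345, 0.177 and 0.564 CPM in depleted RNA (26.7-fold; log2 fold change 4.74, SE 0.178, adjusted p = 9.92e-07). Its level was low, and every bead library lay far above every depleted one. Glp1r, the receptor of the incretin GLP-1, Brs3, a bombesin-like receptor, and Ppp1r17, a phosphatase inhibitor, had log2 fold changes of 1.38, 1.15 and 1.04.

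All 7 ventromedial genes passed as higher in beads. Nr5a1, the steroidogenic factor SF1 that defines this nucleus, had 57.4, 55.4, 46.1 and 75 CPM in beads, against 8.72, 9.25, 9.57 and 8.63 CPM in depleted RNA (log2 fold change 2.67, SE 0.129, adjusted p = 2.87e-06). Its depleted levels were tight and far below each bead library. Nr0b1 (DAX1), Adcyap1 (the PACAP precursor), Fezf1 and Bdnf had log2 fold changes of 2.40, 1.71, 1.44 and 1.01, and Sox14 passed as well. Vgll2 was close to the detection range, with 0.877, 0.96, 0.695 and 1.7 CPM in beads and 0.469, 0.425, 0.648 and 0.484 CPM in depleted RNA, and its call (adjusted p = 0.0269) was lost without any of m1, m3 or f3.

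In the lateral hypothalamus and the premammillary nucleus, genes of LepRb neurons were mostly higher, 3 of 3 and 4 of 5. The lists share members: Gal is also in the GHRH list, and Tac1 is in both of these. Nts, the neurotensin precursor, had 129, 162, 106 and 118 CPM in beads, against 19.1, 23.6, 19.5 and 19.8 CPM in depleted RNA (log2 fold change 2.64, SE 0.0868, adjusted p = 8.84e-07). Tac1, the substance P precursor, had 299, 394, 169 and 203 CPM in beads, against 55, 52.9, 58 and 50.9 CPM in depleted RNA (log2 fold change 2.22, SE 0.202, adjusted p = 0.000142). Slc6a3, the dopamine transporter, varied by lysate in both fractions alike: 189.7, 125, 243 and 77.7 CPM in beads and 34.6, 22.7, 50.2 and 11.7 CPM in depleted RNA. The ratio was steady, with log2 values of 2.45, 2.45, 2.27 and 2.73 by lysate. Dlk1 and Nos1 had log2 fold changes of 1.40 and 0.33. Foxb1, a marker of mammillary neurons, had 8.72, 4.95, 6.98 and 8.55 CPM in beads and 8.87, 7.73, 10.4 and 9.68 CPM in depleted RNA and did not pass (adjusted p = 0.0552).

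Genes of hypothalamic neurons listed as lacking LepRb leaned the other way: 7 of 11 were lower in beads and 3 higher, with a median of -1.09. Oxt, the oxytocin precursor, had 28.5, 21.5, 32.8 and 23.3 CPM in beads, against 102, 92.6, 111 and 86 CPM in depleted RNA (log2 fold change -1.89, SE 0.0834, adjusted p = 1.84e-06). Pmch, the melanin-concentrating hormone precursor, had 25.3, 20.6, 45.5 and 22.7 CPM in beads, against 98.9, 81.4, 128 and 102 CPM in depleted RNA (log2 fold change -1.90, SE 0.111, adjusted p = 6.88e-06). In both genes the highest bead library stayed below the lowest depleted one. Avp (vasopressin), Hcrt (orexin), Gnrh1 and Hdc, the histamine-forming enzyme, had log2 fold changes of -1.57, -1.43, -2.06 and -1.09. The 3 that rose, Prok2 (1.73), Nms (1.47) and Vip (0.65), are peptides of the suprachiasmatic nucleus, the circadian clock centre. Trh did not pass (log2 fold change 0.046).

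Over all neuropeptide precursors, 24 of 37 tested were higher in beads and 9 lower, with a median of 1.47, against the 25.2% and 26% of all genes. By level per kb of exon in beads, the order was Npy (874 ± 575 CPM per kb, mean ± SD, n = 4), Pomc (629.9 ± 117), Cartpt (526 ± 103), Sst (342 ± 60.1), Agrp (127 ± 106), Gal (109.8 ± 16.4) and Nts (103 ± 19.2). The ranges of Npy, Pomc and Cartpt overlapped one another, and those of Agrp, Gal and Nts did too. In depleted RNA the top of the order was Avp (284 ± 31.4 CPM per kb), Sst (187 ± 9.6) and Oxt (182 ± 20.2). Low peptides could still differ widely between fractions: Npw (neuropeptide W) had a log2 fold change of 2.84 and Galp (galanin-like peptide) of 4.05. Galp was at only 0.283 to 0.665 CPM in beads.

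**Figure D3:**
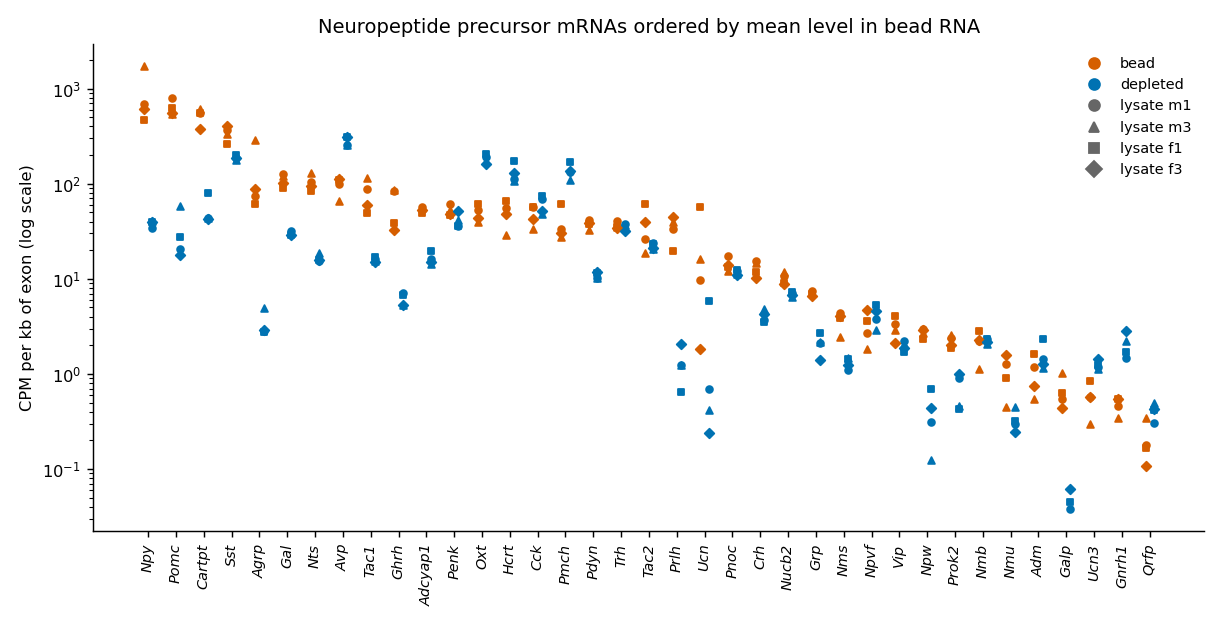
CPM per kb of exon on a log axis for the 37 neuropeptide precursors tested, ordered by mean bead level, with bead libraries in orange (left) and depleted libraries in blue (right); symbols mark lysates, and libraries at 0 counts are not drawn. Npy, Pomc and Cartpt lead in beads, whereas Avp, Oxt, Hcrt and Pmch lie higher in depleted RNA.

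Ucn, the urocortin precursor, is best known from the Edinger-Westphal nucleus of the midbrain. It varied widely between lysates, with 4.85, 8.24, 28.7 and 0.919 CPM in beads, against 0.346, 0.213, 2.95 and 0.121 CPM in depleted RNA. The f1 lysate was the highest and f3 the lowest in both fractions, so the groups overlapped, although each bead library exceeded its own partner (log2 fold change 3.78, SE 0.285, adjusted p = 2.42e-05). Catecholamine genes were enriched also: Th and Ddc, the enzymes of dopamine synthesis, had log2 fold changes of 1.92 and 2.00, and the vesicle transporter Slc18a2 of 1.61. In that list of 10 monoamine and acetylcholine genes 5 were higher and 3 lower, the 3 being Chat, Slc5a7 and Hdc. Of 3 glutamate genes Slc17a7 alone was lower (-1.08), a transporter of cortical and thalamic neurons.

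The receptor and its pathway were enriched in part: 8 of 15 leptin signalling genes were higher and none lower, with a median of 0.28. Socs3, the STAT3-induced inhibitor of the receptor, had 9.42, 9.9, 8.69 and 11.2 CPM in beads, against 2.96, 2.92, 2.21 and 3.75 CPM in depleted RNA (log2 fold change 1.74, SE 0.127, adjusted p = 2.01e-05). Stat3 itself had 165, 208, 164 and 193 CPM in beads, against 66, 69.8, 70.3 and 72.4 CPM in depleted RNA (log2 fold change 1.38, SE 0.0798, adjusted p = 6.54e-06). Irs4, a docking protein that is abundant in hypothalamus, had 327, 550.4, 276 and 377 CPM in beads, against 70.4, 93.8, 70.7 and 76 CPM in depleted RNA (log2 fold change 2.26, SE 0.0991, adjusted p = 1.84e-06). All 3 separated fully between fractions, as did 3521 of the 4649 genes higher in beads. Stat5a, Stat5b and Irs2 had log2 fold changes of 0.58, 0.33 and 0.45; Stat5a and Stat3 overlap on opposite strands. Foxo1 passed narrowly (adjusted p = 0.0426) and was lost without m1, m3 or f1. Jak2, the kinase, had 43.4, 48.7, 46.7 and 48.5 CPM in beads and 47.2, 46.3, 45.3 and 47.4 CPM in depleted RNA (log2 fold change 0.0073, SE 0.0736), and the phosphatases Ptpn1, Ptpn2 and Ptpn11 did not pass. Scaled by library totals, 7 of the 15 were higher and 2 lower.

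Receptors for other peptide hormones leaned to beads: 21 of 33 were higher and 3 lower, median 0.58. Mc3r, a melanocortin receptor, had 21.4, 25.1, 17.3 and 19 CPM in beads, against 3.75, 4.2, 3.62 and 3.87 CPM in depleted RNA (log2 fold change 2.42, SE 0.109, adjusted p = 1.98e-06). Calcr, the calcitonin and amylin receptor, had 49.7, 68.5, 42.9 and 40.0 CPM in beads, against 10.9, 13.6, 12.7 and 10.6 CPM in depleted RNA (log2 fold change 2.05, SE 0.108, adjusted p = 3.91e-06). Npy2r, Ghsr, Ghr (growth hormone receptor) and Ntsr1 had log2 fold changes of 1.79, 1.55, 1.24 and 1.08, and Mc4r of 0.91. The 3 lower were Insr (-0.62), Ramp3 (-0.76), which modifies the calcitonin receptor, and Ntsr2 (-0.93), a receptor found on astrocytes. The opioid receptors Oprm1, Oprd1 and Oprk1 did not pass, while the nociceptin receptor Oprl1 did (0.58). Among steroid and thyroid receptors Esr1 and Thra (0.48) were higher and the mineralocorticoid receptor Nr3c2 lower (-0.51).

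Of 40 regional transcription factors 23 were higher and 11 lower, with a median of 0.56. Besides Gsx1, Otp and Prdm12, those that rose included Tbx19 (3.10), Tbx3 (2.68), Nr5a1 (2.67), Nr0b1 (2.40), the arcuate and lateral homeobox genes Hmx2 (1.91) and Hmx3 (1.56), and Nkx2-4 (1.79). Tbx3os2, a noncoding RNA named for its place opposite Tbx3, had 5.5, 7.5, 4 and 4.95 CPM in beads, against 0.469, 0.691, 0.619 and 0.484 CPM in depleted RNA (log2 fold change 3.26). Lower in beads were Meis2 (-1.49), the telencephalic factors Lhx6 (-1.04) and Lhx8 (-0.91), Lhx9 (-0.92), Zic1 (-0.80) and Sim1 (-0.74), a gene of paraventricular neurons. Lhx6 had 10.6, 10.5, 8.23 and 15.7 CPM in beads and 17.4, 32.9, 13.1 and 33.7 CPM in depleted RNA, higher in m3 and f3 than in m1 and f1 in the depleted fraction. Ppp1r1b (DARPP-32), a striatal marker, followed the same lysates in the depleted fraction, with 49.8, 68.9, 30.0 and 121 CPM.

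**Figure D4:**
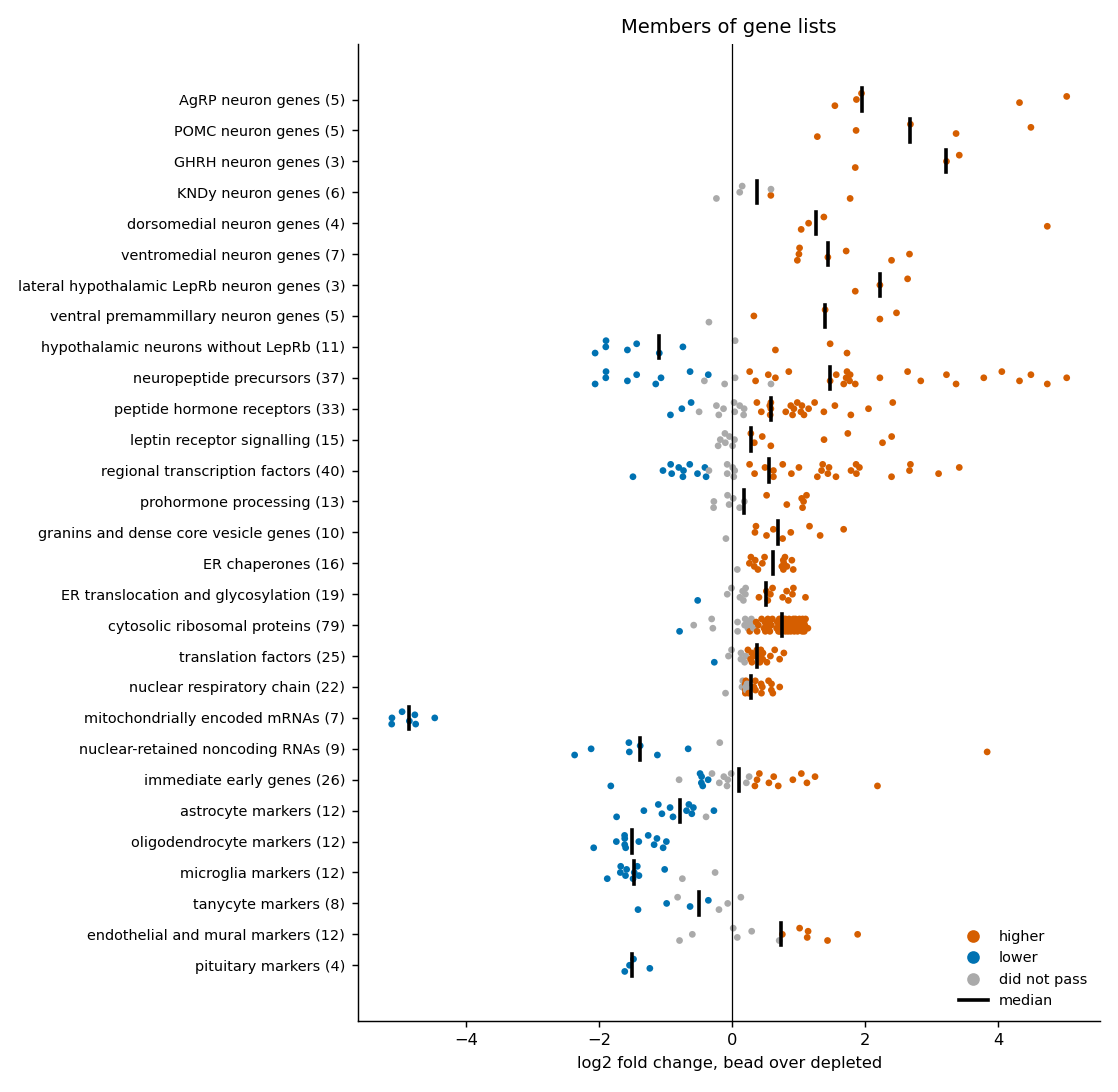
Log2 fold change of bead over depleted RNA for members of 29 gene lists (rows, with the number tested); orange, higher; blue, lower; grey, did not pass; black bars, medians. Lists of LepRb neuron classes lie to the right with medians of 0.37 (KNDy) to 3.22 (GHRH), and glial lists and mitochondrially encoded mRNAs to the left.

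Among the 15 largest rises were genes outside these lists. Timp1, an inhibitor of matrix metalloproteinases, had 1.78, 2.55, 1.65 and 2.47 CPM in beads, against 0.247, 0.186, 0.265 and 0.0806 CPM in depleted RNA (log2 fold change 3.34, SE 0.336, adjusted p = 0.0001). Serpina3n, a secreted serine protease inhibitor of acute phase responses, had 169.9, 319, 166 and 165 CPM in beads, against 24.6, 34.3, 25.5 and 19.6 CPM in depleted RNA (log2 fold change 2.94, SE 0.103, adjusted p = 8.84e-07). Serpina3i (3.17) and Serpina3f (3.15) belong to the same cluster of near-identical genes, between which short reads can be divided wrongly. Krt90, a keratin, had 18.6, 43.2, 16.3 and 16.9 CPM in beads, against 1.93, 4.62, 2.18 and 1.9 CPM in depleted RNA (log2 fold change 3.14, SE 0.113, adjusted p = 8.84e-07). For Serpina3n and Krt90 the m3 bead library stood apart above 3 nearly equal values, as it did for Agrp.

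Genes of the secretory route were higher in beads far more often than lower. All but 1 of 16 ER chaperone genes passed (median 0.62, none lower), with Hspa5 (BiP) at 269, 256, 268 and 235 CPM in beads, against 140.2, 124, 162 and 128 CPM in depleted RNA (log2 fold change 0.90, SE 0.0754, adjusted p = 4.13e-05). Dnajc3 was the member that did not pass. Of ER translocation and glycosylation genes 11 of 19 were higher and 1, Sec63, lower (-0.52). Granins and dense core vesicle genes were higher in 9 of 10, led by Resp18 (1.68), Vgf (1.32) and Scg2 (1.16). Among prohormone processing enzymes 6 of 13 rose: Pcsk1 (1.06), the convertase that cuts POMC, Pam (1.12), which amidates peptides, Qpct (1.05), Pcsk4, Pcsk1n and Scg5. Pcsk2, at 272, 164, 277 and 218 CPM in beads and 233, 163, 237 and 179 CPM in depleted RNA, and Cpe did not pass.

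The abundant genes at least 2-fold higher in beads were led by CT010467.1, annotated as ribosomal RNA, at 3808, 6200.0, 4715 and 14239 CPM in beads, against 2046, 2185, 2291 and 3081 CPM in depleted RNA. Ribosomal RNA has many copies and the libraries were poly(A) selected, so that level is uncertain. Next came Ndn (necdin, an imprinted gene of the Prader-Willi region) at 2494, 3129, 2056 and 2566 CPM in beads, against 976, 1073, 1037 and 1108 CPM in depleted RNA (log2 fold change 1.27, SE 0.0919, adjusted p = 1.89e-05). 6330403K07Rik (1.22), Bex2 (1.15), Zcchc12 (1.24), Gaa, the lysosomal alpha-glucosidase (1.03), Scg2, Pomc, Pgrmc1 and Resp18 made up the others. Their bead levels averaged 721 CPM (Resp18) or more.

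The translation machinery was raised as well. Of 79 cytosolic ribosomal protein genes 66 were higher, 1 was lower and 12 did not pass, with a median of 0.75. Rplp2 had 175, 208, 128 and 190.5 CPM in beads, against 76.9, 75.3, 79.9 and 81.8 CPM in depleted RNA (log2 fold change 1.14, SE 0.116, adjusted p = 0.000104), and Rps14 a log2 fold change of 1.09. Rpl10a, the gene of the tagged protein, had 9.01, 7.09, 10.9 and 9.58 CPM in beads and 10.0, 8.32, 8.37 and 7.54 CPM in depleted RNA (log2 fold change 0.083, SE 0.137, adjusted p = 0.634). The sources used here do not say whether reads of the tagged transgene are counted there. Rpl5 was the member that fell (-0.79), at 1.73 to 2.25 CPM in beads, and processed copies in the genome make low values of this family uncertain. Translation factors were higher in 18 of 25 and lower in 1, Pabpc1 (-0.27), with Eef1a1 at 0.71 and Eef1b2 at 0.78. Snhg12 (1.14), Zfas1 and Gas5 (0.68), noncoding hosts of small nucleolar RNAs, were among 7 of 10 host RNAs higher in beads, and Snhg5 was lower.

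The 15 largest falls were all of RNAs encoded in mitochondria or annotated as noncoding. Bc1, a small noncoding RNA of neuronal dendrites (ENSMUSG00000115783; GRCm38 chromosome 7, 144914470 to 144914637), had 1.43, 2.47, 3.45 and 2.69 CPM in beads, against 181, 167, 223 and 231 CPM in depleted RNA (log2 fold change -6.34, SE 0.157, adjusted p = 1.66e-07). The fractions were far apart in each lysate. Of the 15, 13 were encoded in mitochondria, where separate ribosomes translate: 7 mRNAs, 2 ribosomal RNAs and 4 transfer RNAs. The 7 tested mitochondrial mRNAs were lower in 7 of 7 (median -4.85); mt-Co1 had 86.7, 66.1, 186 and 103 CPM in beads, against 2359, 1859, 2727 and 2208 CPM in depleted RNA (log2 fold change -4.47, SE 0.165, adjusted p = 1.84e-06). The other 6 of the 13 mitochondrial mRNAs were not tested, and 5 of them were listed at 0 in all 8 libraries. Nuclear genes of the respiratory chain, translated in the cytosol, went the other way: 16 of 22 were higher and none lower (median 0.29), although 8 were called without f3 or without m1 and 9 with library totals.

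Nuclear noncoding RNAs were lower in 7 of 9, median -1.38. Meg3, an imprinted RNA of neurons, had 854, 495, 1652 and 864 CPM in beads, against 4512, 5177, 4192 and 4366 CPM in depleted RNA (log2 fold change -2.37, SE 0.285, adjusted p = 0.000472), Miat a log2 fold change of -2.12 and Malat1 of -1.12. Mirg did not pass, and Xist, which coats the inactive X chromosome, was higher. In f lysates it had 241 and 141 CPM in beads, against 14 and 9.52 CPM in depleted RNA, and in m lysates 0.117 and 0 CPM in beads, against 0.173 and 0.106 CPM in depleted RNA. It was higher in beads in both f lysates and near 0 in all m libraries; its call (log2 fold change 3.83, SE 0.409, adjusted p = 0.000283) rests on the f lysates and was lost without the lysate block and with DESeq2. Tsix overlaps it on the other strand, so reads cannot be assigned by strand. By annotated type, protein-coding genes were higher in 28.7% and lower in 24.5% of 15205, whereas lincRNAs were higher in 7.91% and lower in 36.6% of 721, and TEC models (to be experimentally tested) higher in 2.32% and lower in 56.5% of 474.

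Markers of most other cell types were lower in beads or did not pass. Oligodendrocyte markers were lower in 12 of 12 (median -1.50), with Mbp, myelin basic protein, at 709, 549.8, 1246 and 851 CPM in beads, against 1684, 1629, 1667 and 1597 CPM in depleted RNA (log2 fold change -1.04, SE 0.167, adjusted p = 0.00167). Microglia markers were lower in 10 of 12 (median -1.48), oligodendrocyte precursor markers in 4 of 6, erythrocyte genes in 5 of 5, ependymal markers in 3 of 5, choroid plexus markers in 3 of 7 and tanycyte markers in 4 of 8 (2 without f3), with none higher in any of these lists. Astrocyte markers were lower in 11 of 12 (median -0.79; 6 of 12 without m1), with Gfap at 48, 36.9, 96.6 and 69.4 CPM in beads, against 136, 119, 115 and 138 CPM in depleted RNA (log2 fold change -1.11, SE 0.215, adjusted p = 0.00397). Their summed level was 544 to 1368 CPM in beads, against 1231 to 1599.9 CPM in depleted RNA, so glial RNA was still present in each bead library; its part in the levels of other genes was not tested. The 4 pituitary markers tested were lower in beads, at 1.43 to 71 CPM summed, against 3.01 to 294 CPM in depleted RNA, but Gh lost its call without m3 (log2 fold change -0.55). Markers of neurons of other brain regions were lower in 4 of 8 and higher in 1.

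Endothelial markers were higher. Of 12 endothelial and mural markers 6, each endothelial, were higher and none lower (median 0.73). The median log2 ratio of the list was -0.18 and 0.27 in m lysates and 1.38 and 1.27 in f lysates. The mural genes Acta2 (log2 fold change -0.79) and Rgs5 (-0.60) did not pass, and Acta2 was lower with DESeq2, with no filter and without f1. Flt1, a VEGF receptor of endothelial cells, had 7.96, 9.68, 38.1 and 28 CPM in beads, against 4.35, 4.12, 7.04 and 3.55 CPM in depleted RNA (log2 fold change 1.89, SE 0.328, adjusted p = 0.00242). Both f bead libraries exceeded both m bead libraries by a wide margin. Tek, Pecam1, Slco1a4, Cldn5 and Kdr were the others, of which Kdr lost its call without f1, f3 or m3 and Slco1a4 without f1 or f3. The summed level of the 12 markers was 54.5 and 60.7 CPM in m beads and 201 and 150.4 CPM in f beads, against 74.9 to 92.3 CPM in depleted RNA.

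Immediate early genes, which neurons switch on with activity, did not move as a block: 11 of 26 were higher and 6 lower (median 0.10). Atf3, a stress-induced factor, had 6.32, 4.8, 5.76 and 8.41 CPM in beads, against 1.38, 0.956, 1.53 and 1.65 CPM in depleted RNA (log2 fold change 2.19, SE 0.154, adjusted p = 1.69e-05), and Nr4a2 and Junb had log2 fold changes of 1.25 and 1.13. Npas4, an activity gene of neurons, was lower, with 2.28, 1.51, 3.1 and 3.68 CPM in beads, against 8.72, 9.67, 8.16 and 10.0 CPM in depleted RNA (log2 fold change -1.82, SE 0.204, adjusted p = 0.000161). Egr1 had 49.1, 57.7, 56.7 and 86.2 CPM in beads and 50.4, 60.0, 65.2 and 86.8 CPM in depleted RNA and did not pass. Fos was a little higher in beads (log2 fold change 0.41, adjusted p = 0.00699). With library totals 10 were higher and 10 lower.

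Channel and receptor genes of neurons passed in both directions, as genes did in general: 25.2% of all genes tested were higher and 26% lower. The counts of the lists that follow are descriptions to be read beside these shares. Potassium channels were higher in 4 and lower in 8 of 26, and calcium, sodium, HCN and TRPC channels higher in 4 and lower in 9 of 26. Without f3 or m1, 1 potassium channel was higher and 6 lower, and of the second list 3 were higher and 5 (without f3) or 4 (without m1) lower. Without m3, 7 of the second list were higher and 8 lower. The members that stood out were Trpc6 (1.61) and Trpc4 (1.01), cation channels of the TRPC family, and the leak channel Kcnk2 (0.86). Among 36 transmitter receptor genes 10 were higher and 11 lower, with the GABA receptor subunits Gabrq (1.22), Gabre (0.99) and Gabra5 (0.86) at the top and Gabrd (-0.91) at the bottom. Vesicle release genes were higher in 9 and lower in 4 of 18, and 5 were higher without f3 or m1. In the integrated stress response list 3 of 14 were higher and 6 lower: Phgdh (-1.44) and Psat1 (-1.14), enzymes of serine synthesis that are abundant in astrocytes, were lower, while Chac1 and Asns were higher. In that list 1 gene was higher without m1, and 2 without f3 or m3. Clock genes were higher in 4 and lower in 8 of 19, and cholesterol synthesis genes higher in 3 and lower in 2 of 15. Without f3, 0 clock genes were higher and 6 lower, and 1 cholesterol gene was higher and 1 lower. Without m1, 1 clock gene was higher and 6 lower, and 1 cholesterol gene was higher and 1 lower. Without m3, 5 cholesterol genes were higher and 1 lower.

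The titles carry the letters m and f, 2 lysates each, whose meaning the labels do not state. Y-linked Ddx3y had 92.7 and 108 CPM in m beads and 0.029 and 0.0353 CPM in f beads, and Xist was detected the other way round, as given above. These RNAs mark the m lysates as male and the f lysates as female. With 2 lysates each, sex cannot be told apart from other differences between these lysates. The bead-over-depleted difference itself was compared between the letters (m minus f) in the same test. It differed for 117 genes of 18449. Of these, 6 were more enriched in m lysates (0.0325%) and 111 in f lysates (0.602%), where more enriched includes a smaller fall. The number depends on the lysates and the fit: it was 685 without m1, 57 without m3, 36 without f1 and 1260 without f3, 48 with DESeq2, 13 with library totals and 0 without the lysate block.

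Of 37 neuropeptide precursors, 3 were more enriched in m lysates and 1, Tac2, in f lysates. The log2 fold change of Ghrh was 3.78 in m lysates and 2.58 in f lysates (difference m minus f 1.20, SE 0.218, adjusted p = 0.00894). Crhbp, which binds corticotropin-releasing hormone, had 28.6 and 37.1 CPM in m beads and 16.1 and 16.9 CPM in f beads, against 10.0 and 11.5 CPM in m and 11.8 and 12.8 CPM in f depleted RNA (difference m minus f 1.18, SE 0.193, adjusted p = 0.0041). Tac1 (difference m minus f 0.90, SE 0.186, adjusted p = 0.0253), Cartpt (difference m minus f 0.76, SE 0.163, adjusted p = 0.0275) and Arhgap36 (difference m minus f 0.73, SE 0.162, adjusted p = 0.0314) passed as well. With Ghrh and Crhbp, they were named for the smallest p in this comparison, so separation of their ratios by letter adds no support. Agrp, Npy and Pomc did not pass (adjusted p = 0.542, 0.376 and 0.89).

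On the f side stood vascular genes. Of the 12 endothelial and mural markers, 8 were more enriched in f lysates and none in m lysates, with a median difference of -1.42. Rgs5, a pericyte gene, had log2 ratios of -1.53 and -1.25 in m lysates and 0.44 and -0.12 in f lysates (difference m minus f -1.56, SE 0.195, adjusted p = 0.000697). Flt1 had log2 ratios of 0.86 and 1.21 in m lysates and 2.42 and 2.94 in f lysates (difference m minus f -1.62, SE 0.241, adjusted p = 0.00211), and Flna, an actin-binding protein, differed by -1.33. The astrocyte genes Aqp4 (difference m minus f -1.08, SE 0.188, adjusted p = 0.00609) and Gfap (difference m minus f -0.98, SE 0.205, adjusted p = 0.0338) lay on the same side, and in all 3 of the 12 astrocyte markers passed. The difference for Tac2 was of the same sign (difference m minus f -1.15, SE 0.186, adjusted p = 0.00403). The median log2 ratio of the astrocyte markers was below 0 in each lysate: -0.82 and -1.47 in m lysates and -0.255 and -0.48 in f lysates.

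Some RNAs that cytosolic ribosomes do not translate also had a higher bead-over-depleted ratio in f lysates than in m lysates. Malat1 and mt-Rnr2 were lower in beads over all lysates together, so a higher ratio can be a smaller fall. Rn7sk, a small nuclear RNA that holds back transcription elongation, had 0.819 and 0.886 CPM in m beads and 5.01 and 5.58 CPM in f beads, against 3.75 and 5.71 CPM in m and 4.8 and 6.25 CPM in f depleted RNA (difference m minus f -2.39, SE 0.328, adjusted p = 0.000974). The mitochondrial ribosomal RNA mt-Rnr2 had 19.3 and 19.2 CPM in m beads and 52.5 and 56.2 CPM in f beads (difference m minus f -1.21, SE 0.166, adjusted p = 0.000974). Malat1 had 38.5 and 40.1 CPM in m beads and 92.5 and 90.6 CPM in f beads and missed the threshold (difference m minus f -1.13, SE 0.234, adjusted p = 0.0503). The part of these RNAs in the vascular difference was not tested.

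**Figure D5:**
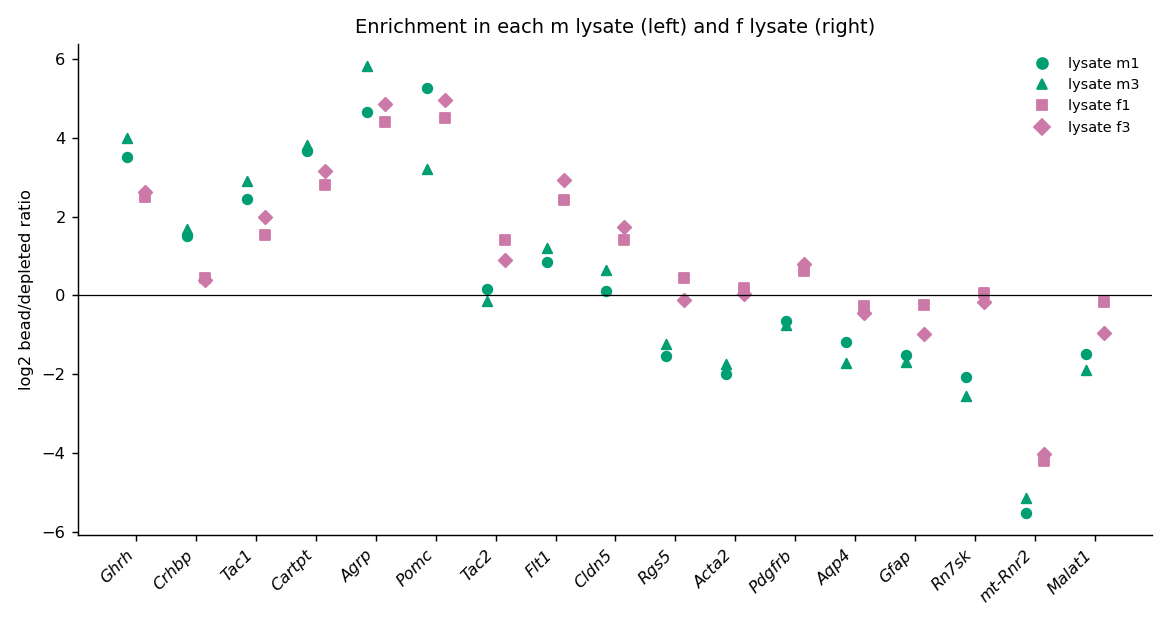
Log2 bead/depleted ratio (vertical axis, 0.1 CPM added to both levels) of 17 genes in each m lysate (green, left) and f lysate (pink, right); symbols mark lysates. The ratios of Ghrh, Crhbp, Tac1 and Cartpt lie higher in both m lysates, those of Flt1, Rgs5, Acta2 and Rn7sk higher in both f lysates, and Agrp and Pomc overlap.

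Levels in beads alone were compared between the letters over the 4 bead libraries, m over f. The threshold was passed by 38 of 16850 genes: 3 were higher in m beads (0.0178%) and 35 lower (0.208%). Ghrh (log2 m over f 1.25, adjusted p = 0.0157), Nup62cl (log2 m over f 1.73, adjusted p = 0.041) and the pseudogene Mrpl48-ps (log2 m over f 2.95, adjusted p = 0.0372) were higher in m beads. The 5 with the smallest p on the other side were mt-Rnr2 (log2 m over f -1.50, adjusted p = 0.00888), Flt1 (log2 m over f -1.92, adjusted p = 0.00888), Gm37194 (log2 m over f -2.41, adjusted p = 0.00888), Rn7sk (log2 m over f -2.63, adjusted p = 0.00888) and Ptprb, a phosphatase of endothelial cells (log2 m over f -2.01, adjusted p = 0.00888). Of the 38, 29 were also among the 117, with the same sign; the comparisons share the bead libraries. Xist and Y-linked genes fell to the filter on low counts here. The count was 312 without m1, 79 without m3, 81 without f1, 1307 without f3 and 108 with DESeq2.

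Among called genes with at least 1 CPM in beads, the log2 ratio varied most over the 4 lysates, by its standard deviation, for Xist, followed by Gm20515 (log2 ratios -1.06, -3.71, -0.37 and -0.88), Gh (1.17, -2.06, -0.68 and -1.18), Sprr1a, a gene of cornified epithelia (2.98, 0.87, 0.73 and 3.00) and Gm833 (1.26, 3.34, 0.39 and 2.00). The endothelial genes Sema3g (0.27, 0.0073, 1.47 and 2.64) and Cd93 (-0.30, 0.61, 1.61 and 2.41) split by letter. Gm24601, n-R5-8s1 and Rps15-ps2 completed the 10; n-R5-8s1, a ribosomal RNA copy, had 4.33, 7.72, 4.32 and 24.5 CPM in beads, highest in f3, and CT010467.1 was highest in f3 as well.

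The enrichment was also set against that in the other vehicle lysates: wild type at 3 h minus 1 wild-type and 2 ob/ob lysates at 10 h. Time, genotype and sequencing run cannot be told apart in this comparison, since 1 run held the 3 h libraries and other runs the rest. Sex-linked RNAs differed as well: each 10 h library held both Xist (5.05 to 25 CPM) and Ddx3y (32.3 to 69 CPM), whereas each 3 h lysate held 1 of them above 1 CPM. None of 18956 genes passed (0%) with edgeR; 1668 reached an unadjusted p under 0.05. DESeq2 gave 41 calls, and edgeR called 131 without m3 and 1 without f1. The RNAs with the largest falls were chosen on the 3 h libraries, so their values are given as a description. The log2 fold change of mt-Co1 was -4.43 in wild type at 3 h and -2.71 in the other vehicle lysates, and that of Bc1 was -6.31 in wild type at 3 h and -2.60 in the others. The others were far apart for Bc1, with 13.2 CPM in beads and 113 CPM in depleted RNA of wild type at 10 h, 21.4 and 367 CPM in those fractions of the first ob/ob lysate, and 156 and 239.9 CPM in those of the second. The log2 fold change of Lepr was 2.43 in wild type at 3 h and 1.90 in the others. Agrp had 5.07 in wild type at 3 h and 5.59 in the others, Npy 4.36 and 4.99 in the same groups, and Pomc 4.53 and 4.31. None of these differences passed.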

How the data were processed

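RNA-seq of tagged-ribosome pull-downs and their depleted supernatants was described from a table of counts per gene that the authors deposited, unnormalized whole-number reads. Alignment used STAR 2.7.6a and GRCm38.p6, per the submitters' processing notes; the sources used here do not name the counting program. Poly(A) libraries from RNA of integrity number 8 or more were read as single ends, per the labels' protocols, with a kit that does not mark strand. Groups came from the genotype, treatment and fraction labels, and pairs from the lysate in the title.

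Genes with at least 10 counts in 3 or more of the libraries compared were kept. Counts were tested with edgeR 4.0.16 (R 4.3.3; robust quasi-likelihood, TMM scaling, lysate as a block, tested on simulated data), with an adjusted p of 0.05 as the threshold. Libraries of a lysate deviated together from the mean of their fraction (r = 0.242 to 0.399, at most 0.0461 otherwise), and the block was kept. Subtracting that mean itself lowers r between different lysates, so the lower value is partly built in. The labels do not say that lysates are separate animals. Xist and Ddx3y set m lysates apart from f lysates, but not lysates of the same letter from each other. The p-values therefore measure the spread between these lysates, which within a letter may be technical. Alternatives were no block, DESeq2 1.42.0, limma 3.58.1 (voom), other scalings and filters, and leaving out each lysate. CPM are reads per 1e+06 counted, TMM-scaled, and CPM per kb are divided by exon length (GENCODE M21, which held 55227 of 55487 IDs). Promoters are from RefSeq.

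The genes named were the 15 largest rises and 15 largest falls of at least 1 CPM with 1 sign in all lysates, the 10 most abundant genes at least 2-fold higher, list members, the 5 smallest p per direction in the other comparisons, and the 10 most variable ratios. The members and the 48 lists (663 genes) were chosen with earlier results of these data known. Reads of paralogs, processed copies and overlapping genes may be divided wrongly. Some members of the lists are not reported here.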

Additional observations from a re-analysis of the deposited data

Results flagged for a closer look

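Dixon's test was run over the 4 lysates on the bead CPM and the bead-over-depleted ratio of 49 named genes. In 6 of 98 tests 1 library stood apart from the other 3. Chance gives about 1 in 20 for genes chosen without regard to their spread. Some of the 49, Gh and n-R5-8s1 among them, were named because their ratios varied most over these same lysates. That rate therefore cannot be applied to this set, and the 6 are given as a description. In bead RNA of lysate m3, Agrp had 289 CPM, against 62.4 to 89.1 CPM in the other bead libraries. Serpina3n had 319 CPM there, against 165 to 169.9 CPM, Krt90 43.2 CPM, against 16.3 to 18.6 CPM, and Serpina3i 4.32 CPM, against 2.08 to 2.26 CPM. Gh had 57 CPM there, against 0.292 to 0.608 CPM. The other was n-R5-8s1, with 24.5 CPM in f3 beads, against 4.32 to 7.72 CPM.

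The bead-over-depleted difference itself differed between m and f lysates (m minus f) for 117 genes by edgeR's test. Among the genes named by rank it was larger in m lysates for Ghrh (1.20 on the log2 scale), Crhbp (1.18), Tac1 (0.90), Cartpt (0.76) and Arhgap36 (0.73). The bead-over-depleted ratio was higher in f lysates for Rn7sk (-2.39), Flt1 (-1.62), Rgs5 (-1.56), Flna (-1.33) and mt-Rnr2 (-1.21). A higher ratio there includes a smaller fall in beads.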

How the results depend on the processing

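Without the lysate block (no pairing) 4322 genes rose in beads and 4334 fell, of which 4261 and 4255 were also called with it, and 0 genes differed in enrichment between m and f lysates, against 117. Leaving out each lysate gave 3024 to 5304 genes higher, 3178 to 5354 lower, 443 to 660 at least 2-fold higher and 1364 to 2090 at least 2-fold lower. It gave 36 to 1260 genes for the m and f enrichment, 79 to 1307 for m and f beads and 0 to 131 against the other vehicle lysates. A filter of 50 counts left 338 genes at least 2-fold higher, 1042 at least 2-fold lower and 18 between m and f beads; fewer genes were tested there. With no filter 531, 415 and 439 genes differed in the m and f enrichment, the m and f beads and the other vehicle comparison. DESeq2 called 48, 108 and 41. Library totals gave 13 for the enrichment and 19 for the beads, limma voom 19 for the beads, and the test without robust estimation 197 for the enrichment. The cause was not tested.

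Library totals turned the list medians of GABA and glycine neuron genes (-0.021), immediate early genes (-0.024), integrated stress response (-0.082) and cholesterol synthesis (-0.014) below 0, and shifted all fold changes by -0.12. The median of the 5 sex-linked genes was -0.33, and it was -0.39 without f1 and -0.41 without f3. Without m1 or m3 only 1 of them, Xist, was tested, with values of 3.91 and 3.92. Of the values of named genes under these alternatives, 7692 stayed on the same side of the threshold, 352 lost the call and 148 gained it.

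With 4 lysates, 2 per letter, and 3 other vehicle lysates, small differences were not detectable, and low genes such as Vgll2 and Galp carry wide counting error.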
